A study of Mus musculus with 12 samples.

Results

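The 10 genes described here are the dual-specificity phosphatase genes Dusp1, Dusp2, Dusp3, Dusp4, Dusp5, Dusp6 and Dusp16, the Sprouty-related genes Spred1 and Spred2, and Zfp36, out of 43278 gene symbols in the deposited table. They were chosen by name, with the levels of these genes in the same 12 libraries already known, so that their levels and changes in all 4 groups are given as a description of these libraries and not as independent evidence that the families respond. RNA was measured by poly(A) RNA-seq in thioglycolate-elicited peritoneal macrophages (PMφs) of wild-type C57BL/6J mice 8 to 12 wk of age, taken 4 d after the injection and used as adherent cells after 18 h. Control PMφs received neither agent, and oxLDL PMφs were cultured for 24 h with 100 µg/ml human medium oxidized LDL, a modified lipoprotein that macrophages take up and store. LPS PMφs received 10 ng/ml ultrapure LPS, a bacterial agonist of TLR4, and oxLDL+LPS PMφs received both the oxLDL culture and LPS. Each group has 3 libraries with the replicate numbers 1 to 3, and the duration of LPS in these libraries is not given in the sources used here. Per the methods of the study, each experiment combined cells of up to 10 littermates of both sexes before they were split into the treatments, so that a replicate number stands for a pool and not for an animal.

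MAP kinases (ERK, JNK and p38) are switched on by phosphorylation of a threonine and a neighbouring tyrosine, and MAP kinase phosphatases of the DUSP family switch them off by removing both phosphates. Many of these phosphatase genes are themselves induced by MAP kinase signaling, which makes them feedback inhibitors. Spred proteins act further upstream and hold back the signal from Ras to ERK, and ZFP36 (tristetraprolin) binds AU-rich elements in cytokine mRNAs and speeds up their decay. In macrophages some of these genes, such as Dusp1 and Zfp36, are known for limiting the output of TLR signaling.

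The deposited values are whole numbers that behave as rounded read counts scaled by a constant of each library, and the steps between low values imply 16726105 to 26178875 reads per library. Values are given on this scale, with the mean ± SD over 3 libraries. Fold changes are on the log2(value + 1) scale, and a gene is called at a Benjamini-Hochberg adjusted p under 0.1 in limma over all genes tested. Ranges of the adjusted p are over other settings and single libraries left out, and do not cover the block with a replicate number left out, which is given by its calls or folds because its fits have few residual degrees of freedom and adjusted p as low as 1.751e-43 for Dusp2. Of 8 macrophage markers, 7 were in the table, and their summed value was 226714 to 318793 per library, against 40 to 87 for 6 B cell markers. T cell markers summed to 18 to 37 without LPS and 84 to 245 with LPS, most of it Lck, with Cd3d, Cd3e and Cd3g at 2 or below in every library. Neutrophil markers summed to 1112 to 1815 without LPS and 2542 to 6397 with LPS, nearly all of it Csf3r, and eosinophil markers to 184 to 386 and 59 to 125. The defining neutrophil gene Ly6g and the eosinophil gene Prg2 were at 0 in all 12 libraries. Markers of mesothelial cells and fibroblasts followed the replicate number more than the treatment, with sums of 18534 to 32024 in number 1, 14620 to 17623 in number 2 and 5432 to 6310 in number 3. The part of these markers in the results below was not tested, and in bulk RNA fewer cells of a type and less RNA per cell cannot be told apart. All 6 LPS check genes were called higher with LPS in PMφs without and with oxLDL. Of these, Il6 and Nos2 were at 0 to 1 and at 1 to 2 in oxLDL PMφs. In oxLDL-loaded PMφs they thus passed the filter only through the libraries with LPS. Of 6 oxLDL check genes 0 were called with oxLDL in the unblocked fit, whereas 4 were higher and 2 lower with the replicate number as a block.

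The sex-linked transcripts went against a shared pool in replicate number 1. Xist, the X-inactivation RNA of female cells, was at 1 and 2 in the control and oxLDL libraries of number 1 but at 6331 and 3812 in its LPS and oxLDL+LPS libraries, and the summed value of 4 Y-linked genes was 3138 and 3009 against 1023 and 1004. The libraries of number 2 held Xist at 5933 to 7751 with Y-linked sums of 0 to 2, and those of number 3 held both in all 4 groups. The number 1 libraries without and with LPS therefore did not hold the same mixture of male and female cells. The oxLDL comparisons set libraries of nearer mixture beside each other. In number 1 with LPS, however, Xist differed between LPS and oxLDL+LPS, at 6331 and 3812, with Y-linked sums of 1023 and 1004. Counts of calls in the LPS comparisons, and the values of Dusp1, are therefore also given without number 1.

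RefSeq start sites on GRCm38.p6 were matched for 9 of the 10 genes. The 250 bases before the start are printed for the gene with the largest LPS response (Spred1), for the other genes that were called lower in oxLDL+LPS than in LPS PMφs with the replicate block (Dusp16, Dusp2 and Zfp36), and for the best known inducible phosphatase (Dusp1) and the gene without a called change with LPS (Dusp5). Capitals mark matches on either strand to the motifs searched: the AP-1 site TGANTCA, the cAMP response element TGACGTCA, the ETS site CCGGAAG, the TATA box TATAAA, and the NF-κB and serum response (CArG) motifs. A CArG match can hold the TATA motif, but none of the marked matches lies within another. The shorter motif TGACG, which the cAMP response element contains, was also searched and is not marked.
Spred1, chr2:117120821-117121070, plus strand: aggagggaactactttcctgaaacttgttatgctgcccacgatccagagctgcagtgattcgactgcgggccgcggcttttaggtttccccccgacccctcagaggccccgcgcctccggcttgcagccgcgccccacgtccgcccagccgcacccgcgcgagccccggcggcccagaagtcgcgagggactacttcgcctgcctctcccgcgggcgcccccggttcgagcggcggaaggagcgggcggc
Dusp16, chr6:134792629-134792878, minus strand: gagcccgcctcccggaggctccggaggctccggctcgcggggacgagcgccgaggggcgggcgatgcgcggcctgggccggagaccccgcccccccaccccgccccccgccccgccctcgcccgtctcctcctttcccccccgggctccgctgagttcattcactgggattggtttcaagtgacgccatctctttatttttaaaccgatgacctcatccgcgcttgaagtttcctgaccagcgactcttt
Dusp2, chr2:127335909-127336158, plus strand: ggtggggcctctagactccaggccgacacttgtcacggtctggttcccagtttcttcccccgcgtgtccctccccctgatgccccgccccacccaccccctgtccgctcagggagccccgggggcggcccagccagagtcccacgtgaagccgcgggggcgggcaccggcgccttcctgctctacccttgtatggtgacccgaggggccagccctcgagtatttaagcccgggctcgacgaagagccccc
Zfp36, chr7:28379229-28379478, minus strand: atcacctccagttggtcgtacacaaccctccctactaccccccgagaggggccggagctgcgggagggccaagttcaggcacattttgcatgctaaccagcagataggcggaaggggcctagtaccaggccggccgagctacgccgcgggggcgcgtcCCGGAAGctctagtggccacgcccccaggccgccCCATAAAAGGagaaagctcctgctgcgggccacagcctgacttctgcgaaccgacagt
Dusp1, chr17:26508473-26508722, minus strand: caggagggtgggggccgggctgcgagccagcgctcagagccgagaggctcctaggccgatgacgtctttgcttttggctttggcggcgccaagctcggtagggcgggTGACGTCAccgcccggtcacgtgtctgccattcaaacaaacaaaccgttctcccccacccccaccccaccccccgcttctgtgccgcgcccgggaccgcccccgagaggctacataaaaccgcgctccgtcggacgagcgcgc
Dusp5, chr19:53528895-53529144, plus strand: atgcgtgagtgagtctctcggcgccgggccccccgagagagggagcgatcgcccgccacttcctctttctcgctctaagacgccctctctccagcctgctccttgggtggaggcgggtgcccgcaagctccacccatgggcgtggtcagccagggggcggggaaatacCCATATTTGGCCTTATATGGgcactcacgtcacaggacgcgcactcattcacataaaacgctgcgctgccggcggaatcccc

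Of these 6 windows, Dusp1 held a cAMP response element, Zfp36 an ETS site and a CArG box, and Dusp5 a pair of adjacent CArG boxes 82 to 63 bases before its start. The shorter motif was in 4 of the 9 windows, those of Dusp1, Dusp5, Dusp16 and Spred2, and in 17.9% of all windows. Among 27025 mouse promoter windows of the same length, 1.62% held the cAMP response element, 1.4% a CArG box and 7.05% the ETS site. None of the 9 windows held the AP-1, NF-κB or TATA motif, which 6.87%, 3.75% and 13% of all windows held. The 9 windows had 56% to 70.8% G+C against a median of 52% over all windows, and 12 to 31 CpG dinucleotides against a median of 6. These matches describe the letters in the windows and say nothing of binding.

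The genes lie on the mouse build GRCm38, with positions from GENCODE vM21. The RefSeq start sites of the windows above are not always the starts of these GENCODE genes. The windows of Dusp1 and Zfp36 lie inside the GENCODE gene, and that of Dusp5 runs past its GENCODE start. Spred1 is at chr2:117121374-117182279 and Dusp2 at chr2:127336159-127338376, both on the plus strand, as are Dusp4 at chr8:34807297-34819894, Dusp5 at chr19:53529109-53542431, Dusp6 at chr10:99263231-99267489 and Spred2 at chr11:19924375-20024026. Dusp1 at chr17:26505590-26562128, Dusp3 at chr11:101971143-101987013, Dusp16 at chr6:134715468-134792625 and Zfp36 at chr7:28376784-28380253 are on the minus strand. Dusp1, Dusp3, Dusp5, Dusp16 and Zfp36 each overlap at least 1 annotated gene on the opposite strand, and the strand setting of the counting is not given in the sources used here, so that reads of the pairs cannot be told apart. Of these opposite-strand genes, the highest value in a library was 3369 for Ergic1 and 2 for Gm8225, both at Dusp1, and 0 for Gm20659 at Dusp3. The others were not among the symbols, so their level is not known.

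Per kilobase of exon, Dusp3 was the most abundant of the 10 transcripts in control PMφs, at 1218 ± 97.7, followed by Zfp36 at 516 ± 59.8, Dusp1 at 199 ± 23.8 and Spred1 at 109 ± 13.2. These 4 did not overlap with their neighbours in the order. Dusp2, Dusp4, Dusp6 and Dusp5 followed at 75.6, 72.1, 65.8 and 60.3 per kilobase, with ranges that overlapped from each to the next, and Dusp16 and Spred2 were lowest at 40 ± 2.04 and 37.2 ± 11.8. In LPS PMφs the order was led by Zfp36 at 2066 ± 810 and Spred1 at 1382 ± 98.3, whose ranges overlapped, and Dusp3 stood at 406 ± 92.3, within the range of Dusp2 and Dusp4. Dusp5 was lowest in both LPS groups, at 62.4 ± 11.7 and 56.5 ± 21.1 per kilobase.

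**Figure D1:**
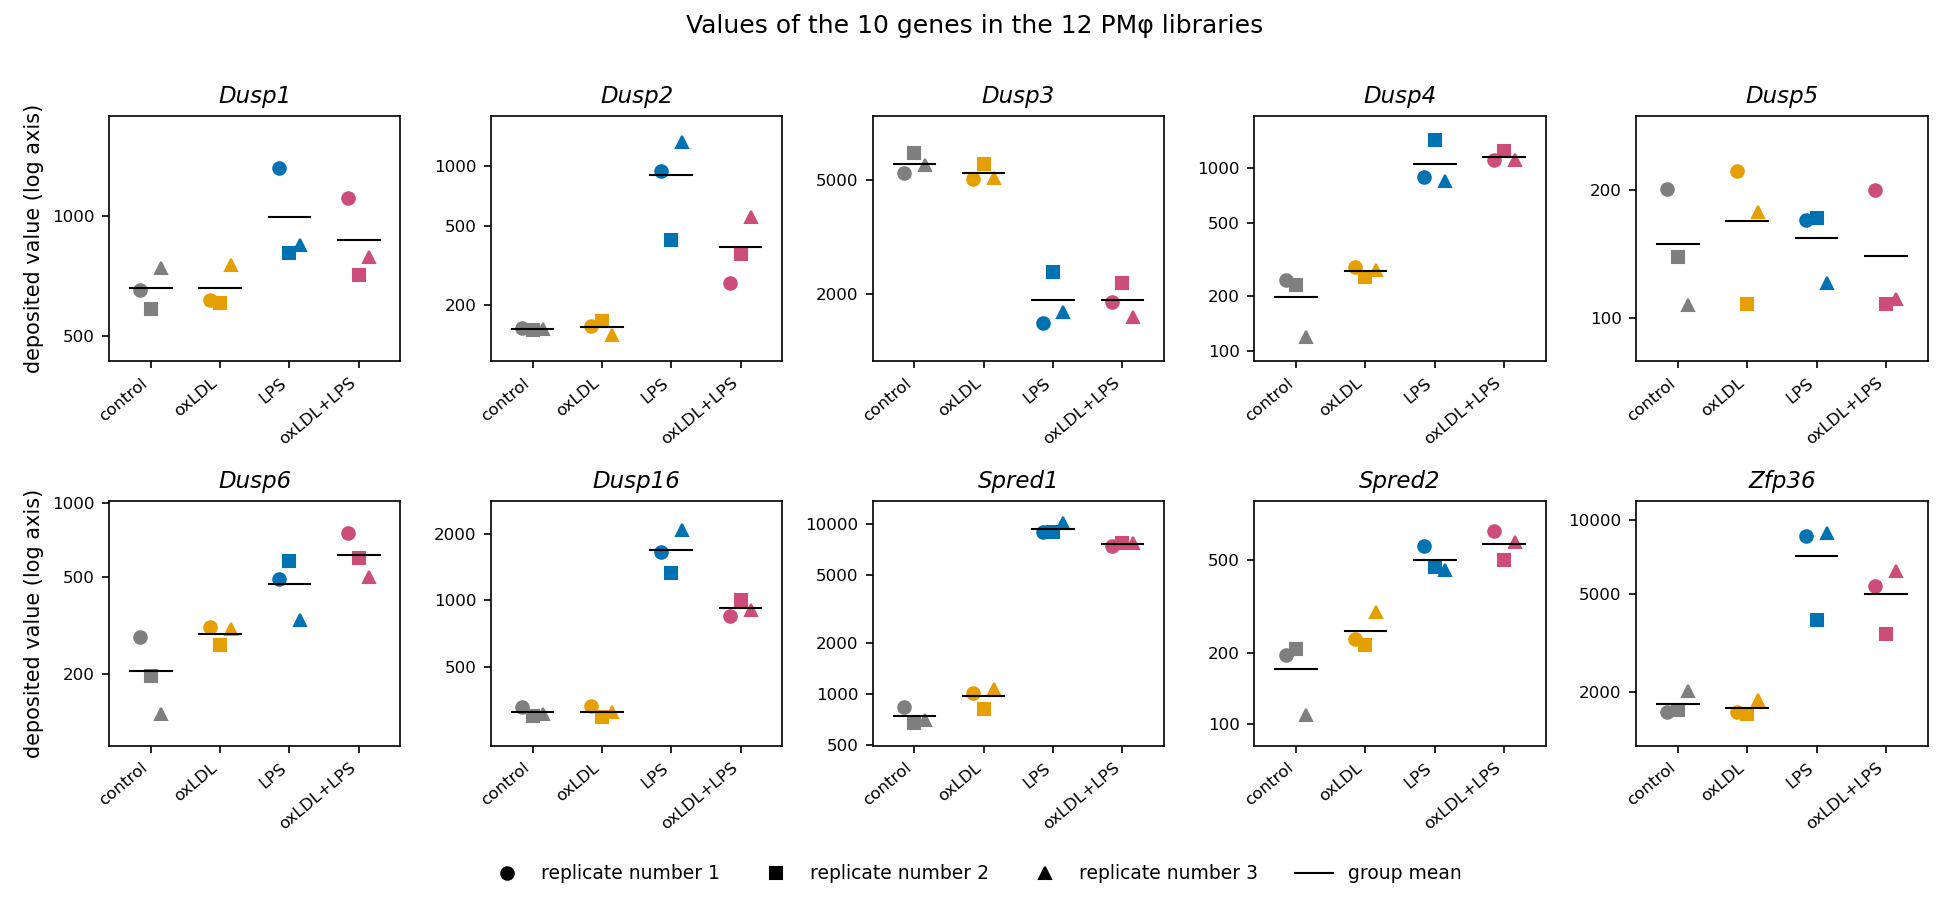
Deposited values of the 10 genes in each library, on a log axis, in control, oxLDL, LPS and oxLDL+LPS PMφs. Marker shapes give the replicate number and bars the group mean, and 8 genes sit higher in LPS than in control PMφs while Dusp3 sits lower and Dusp5 overlaps.

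The first question was which of these genes LPS changed in PMφs without oxLDL. In LPS against control PMφs, 9 of the 10 genes were called, 8 higher and 1 lower. Among all 13006 genes tested 61.7% were called, 31.4% higher and 30.3% lower, so that a call alone says little about a gene here. The same 9 genes had groups that did not overlap, as did 63.2% of all genes tested. The median log2 fold change of the 10 genes was 1.75, beside −0.00069 over all genes. With the replicate block 68.7% of all genes and 9 of the 10 were called, and without number 1 in the block again 9. Of those 9, Dusp1 went from a log2 change of 0.56 to 0.33 without number 1, and the other 8 had changes from −1.54 for Dusp3 to 3.80 for Spred1.

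Spred1, which restrains Ras signaling to ERK, had the largest response. It was at 839, 670 and 702 in control PMφs and at 8963, 9017 and 10144 in LPS PMφs. Every LPS library stood far above every control library, and the 3 LPS values lay close together. It rose by 3.67 on the log2 scale (SE 0.11, limma adjusted p = 3.297e-07), or 12.7-fold. Spred2, its paralog with the same action on Ras signaling, was at 197, 209 and 109 in control and at 578, 470 and 456 in LPS PMφs, a log2 rise of 1.59 (SE 0.25, limma adjusted p = 0.00115). On the scale per kilobase the Spred1 level was 109 against 37.2 for Spred2 in control PMφs, and 1382 against 109 in LPS PMφs.

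Dusp2, a nuclear phosphatase of ERK and p38 found mainly in leukocytes, was at 153, 150 and 151 in control and at 942, 426 and 1329 in LPS PMφs. The control values were nearly equal, whereas the LPS libraries spread over more than the control level itself, with number 2 lowest. Dusp2 rose by 2.41 on the log2 scale (SE 0.36, limma adjusted p = 9.180e-04). Dusp4, another nuclear phosphatase, was at 245, 229 and 119 in control and at 896, 1429 and 848 in LPS PMφs, with number 2 the highest LPS library. On the log2 scale it rose by 2.44 (SE 0.31, limma adjusted p = 3.643e-04).

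Dusp16, a phosphatase with a preference for JNK and p38, was at 330, 300 and 306 in control and at 1662, 1332 and 2092 in LPS PMφs. All LPS values stood above all control values, and the log2 rise was 2.42 (SE 0.16, limma adjusted p = 1.274e-05). Dusp6, a cytoplasmic phosphatase selective for ERK, was at 284, 196 and 138 in control and at 492, 578 and 333 in LPS PMφs. The lowest LPS library stood a little above the highest control library, and the log2 rise was 1.20 (SE 0.29, limma adjusted p = 0.00971).

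Dusp1, the immediate-early phosphatase of p38 and JNK, changed least among the genes called higher. It was at 653, 585 and 742 in control and at 1320, 808 and 848 in LPS PMφs, a log2 rise of 0.56 (SE 0.20, limma adjusted p = 0.0428). Number 1 rose most, by 1.01 on the log2 scale, against 0.47 and 0.19 in numbers 2 and 3, and without number 1 in the block the rise was 0.33 (limma adjusted p = 0.0408). Without control replicate 2 the log2 difference of Dusp1 was 0.47 and its limma adjusted p 0.132, and with values rescaled to equal library totals they were 0.07 and 0.791, from 0.0172 to 0.791 across alternatives. In the annotation Dusp1 overlaps Ergic1 on the opposite strand, whose value reached 3369 in a library.

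Dusp3, a small phosphatase of ERK and JNK that lacks the kinase-docking domain of the others, was the gene that fell. It was at 5285, 6191 and 5628 in control and at 1579, 2392 and 1731 in LPS PMφs, and the groups lay far apart. On the log2 scale the change was −1.60 (SE 0.16, limma adjusted p = 9.915e-05), 3.04-fold lower with LPS. Dusp5, a nuclear phosphatase selective for ERK, was at 201, 139 and 107 in control and at 170, 172 and 121 in LPS PMφs. Its groups overlapped, and the log2 difference was 0.08 (SE 0.26, limma adjusted p = 0.816).

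Zfp36, the mRNA decay factor, was at 1658, 1685 and 2030 in control and at 8677, 3923 and 8902 in LPS PMφs. Number 2 was the lowest LPS library here as it was for Dusp2 and Dusp16, yet it stood above every control library. The rise was 1.91 on the log2 scale (SE 0.30, limma adjusted p = 0.00110), or 3.76-fold. Totals of the deposited values were 17152972 to 17709731 in control and 22590678 to 26384551 in LPS PMφs, and rescaling to equal totals moved the median of all genes by −0.48 on the log2 scale. Under that scaling the split of calls was 2205 higher and 7190 lower, in place of 4087 and 3938, and 8 of the 10 genes were still called, each in its own direction, with Dusp1 at 0.07.

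The second question was whether LPS did the same in PMφs that had taken up oxLDL. In oxLDL+LPS against oxLDL PMφs, 8 of the 10 genes were called, 7 higher and 1 lower, where 54.5% of 12883 genes tested were called, 28.1% higher and 26.3% lower. The groups of these 8 genes did not overlap, as for 57.6% of all genes tested. With the replicate block 63.4% of all genes and 9 of the 10 were called, Dusp1 being added. Without number 1 in the block 8 were called, with log2 changes from −1.50 for Dusp3 to 3.05 for Spred1. The median log2 fold change of the 10 genes was 1.25, beside −0.02 over all genes.

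Spred1 was at 1018, 814 and 1067 in oxLDL and at 7398, 7673 and 7775 in oxLDL+LPS PMφs. The oxLDL+LPS libraries lay within a narrow band, and the log2 rise was 2.99 (SE 0.11, limma adjusted p = 1.725e-06), or 7.93-fold. Spred2 was at 231, 218 and 302 in oxLDL and at 666, 501 and 601 in oxLDL+LPS PMφs, a log2 rise of 1.24 (SE 0.16, limma adjusted p = 7.578e-04).

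Dusp2 was at 156, 165 and 141 in oxLDL and at 258, 360 and 556 in oxLDL+LPS PMφs, a log2 rise of 1.27 (SE 0.26, limma adjusted p = 0.00610). Dusp16 was at 333, 298 and 312 and then at 850, 1008 and 909, a log2 rise of 1.55 (SE 0.10, limma adjusted p = 2.421e-05). Zfp36 was at 1665, 1637 and 1863 and then at 5384, 3446 and 6244, a 2.84-fold rise (log2 SE 0.21, limma adjusted p = 8.893e-04). For these 3 genes the oxLDL values lay near the control values. The oxLDL+LPS values of Dusp16 lay below all LPS values, and those of Dusp2 and Zfp36 overlapped with them.

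Dusp4 was at 289, 254 and 278 in oxLDL and at 1107, 1248 and 1105 in oxLDL+LPS PMφs, a log2 rise of 2.07 (SE 0.10, limma adjusted p = 5.316e-06). Dusp6 was at 311, 263 and 306 and then at 758, 596 and 497, a log2 rise of 1.05 (SE 0.17, limma adjusted p = 0.00173). Dusp3 was at 5042, 5706 and 5064 and then at 1875, 2178 and 1665, a log2 change of −1.47 (SE 0.12, limma adjusted p = 5.620e-05). Dusp3 thus reached nearly the same level in both LPS groups, 1901 ± 432 and 1906 ± 258.

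Dusp1 was at 615, 606 and 754 in oxLDL and at 1112, 712 and 788 in oxLDL+LPS PMφs, with groups that overlapped. The log2 difference of Dusp1 was 0.38 (SE 0.18, limma adjusted p = 0.120), and 0.0778 with the replicate block, from 0.0520 to 0.976 across alternatives. It was also called without oxLDL replicate 3 and without oxLDL+LPS replicate 2, at a limma adjusted p of 0.0993 and 0.0520, and without number 1 in the block the log2 difference was 0.15 and the adjusted p 0.262. Dusp5 was at 221, 108 and 177 and then at 200, 108 and 111, with a log2 difference of −0.27 (SE 0.33, limma adjusted p = 0.544). Rescaling to equal totals moved the median of all genes by −0.38 here and changed the split of calls from 3626 higher and 3389 lower to 2052 and 6614. The 8 called genes kept their directions, and Dusp1 came to −0.0073.

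**Figure D2:**
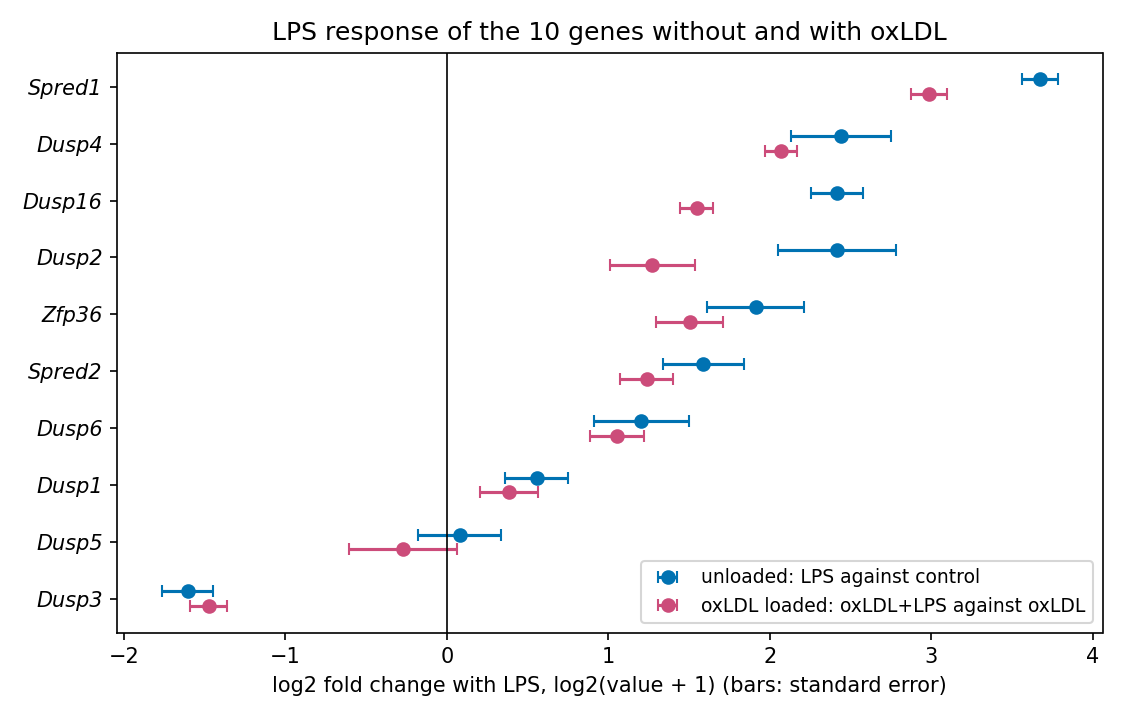
Log2 fold change with LPS of the 10 genes in unloaded PMφs (LPS against control) and in oxLDL-loaded PMφs (oxLDL+LPS against oxLDL), with standard errors from limma. Spred1, Dusp16 and Dusp2 are farthest apart between the pair of comparisons, at 3.67 and 2.99, 2.42 and 1.55, and 2.41 and 1.27.

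Related genes outside the 10 were taken from lists written with earlier results of these libraries known, and their counts are on the scaling as deposited. They stand beside 61.7% of all genes called with LPS, 31.4% higher and 30.3% lower, and 54.5%, 28.1% and 26.3% in oxLDL-loaded PMφs. Of 5 other MAP kinase phosphatase genes, 4 were tested in LPS against control PMφs, 0 were called higher and 2 lower, with a median of −0.58. Dusp9 was at 78 to 90 in control and at 21 to 37 in LPS PMφs (log2 change −1.58, adjusted p = 0.00118 from limma), and Dusp10, a phosphatase of JNK and p38, was at 145 to 186 and at 58 to 105 (−1.07, limma adjusted p = 0.00634). In oxLDL-loaded PMφs 3 were called lower with LPS, Dusp10, Dusp9 and Dusp7, with a median of −0.95. Of 10 tested atypical dual-specificity phosphatases 2 were higher and 4 lower with LPS, with Dusp13 and Dusp18 falling by 2.73 and 1.85 on the log2 scale and Dusp28 and Dusp11 rising by 1.29 and 0.61.

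Of 4 tested Sprouty and Spred genes outside the 10, Spry1 alone was called, from 4 to 9 in control to 40 to 170 in LPS PMφs (log2 change 3.45, SE 0.54, limma adjusted p = 0.00112), and the median was 0.29. Sprouty proteins inhibit Ras signaling from receptor tyrosine kinases. The level of Spry1 was low, at 1 to 3 in oxLDL PMφs and at 13 to 72 in oxLDL+LPS PMφs. Without LPS it stayed under the value of 10 required for a test. Its libraries with LPS alone brought it into the test, so its call is tied to the filter. Of the 2 other Zfp36 family genes tested, Zfp36l2 fell from 7718 to 8680 in control PMφs to 2366 to 3768 with LPS (−1.49, SE 0.17, limma adjusted p = 1.855e-04), opposite in direction to Zfp36 itself.

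**Figure D3:**
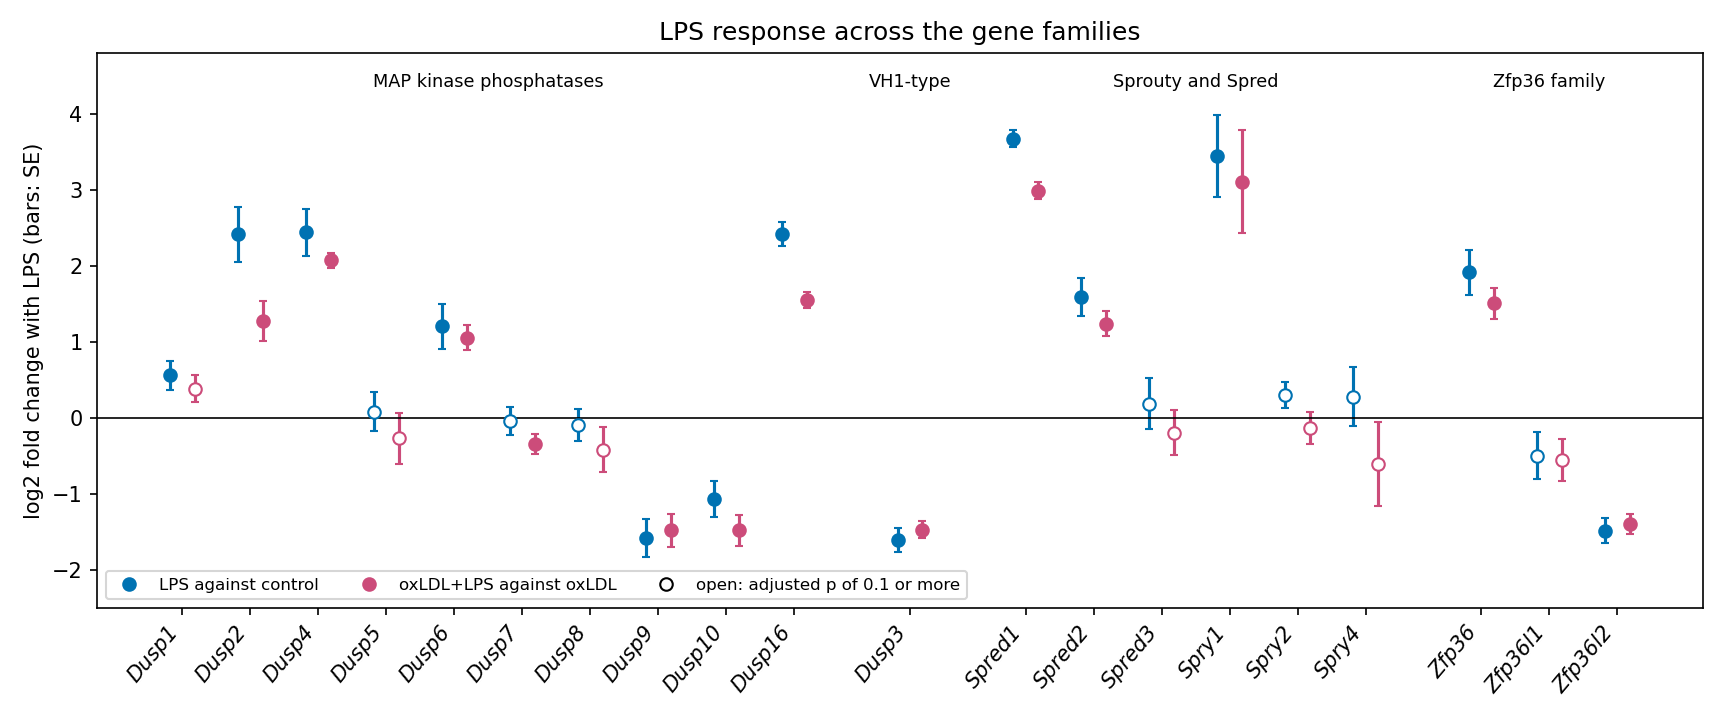
Log2 fold change with LPS, with standard errors, of the MAP kinase phosphatase, Sprouty and Spred, and Zfp36 family genes that were tested, in unloaded and oxLDL-loaded PMφs. Filled points were called at an adjusted p under 0.1 in limma, and Dusp9, Dusp10, Dusp3 and Zfp36l2 were called below 0 in both comparisons. Dusp7, Dusp8 and Zfp36l1 also lie below 0 in both, without a call in both.

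Of 36 tested genes of the MAP kinase cascade, 16 were higher and 8 lower with LPS in PMφs without oxLDL, and 14 and 7 in oxLDL-loaded PMφs. The medians were 0.19 and 0.15. The shares called in either direction were near the 61.7% and 54.5% of all genes, with more higher and fewer lower than among all genes. The 4 with the smallest p in the first comparison were Map2k1, a kinase of ERK, which rose by 2.10 on the log2 scale, Tab2, an adaptor of the kinase TAK1, by 1.55, the atypical MAP kinase gene Mapk6 by 1.19, and Map3k8, the kinase TPL2 that couples TLR4 to ERK, by 1.33. Of 10 kinases downstream of the MAP kinases 3 rose and 5 fell, and the median was −0.37. Mapkapk2, the p38-activated kinase that phosphorylates ZFP36, rose 7.24-fold and Rps6ka4 2.72-fold, while Mknk2 fell by 3.12 and Rps6ka1 by 0.86 on the log2 scale. Of 13 tested ERK-responsive transcripts 7 rose and 2 fell, with a median of 0.65, and Junb rose 5.59-fold, Ier3 12.5-fold, Ier2 2.47-fold and Phlda1 4.63-fold. The 2 that fell were Fos and Egr2, with log2 changes of −1.49 and −0.53, named for their direction after their values were seen. In oxLDL-loaded PMφs 6 rose and 3 fell, the latter being Egr1 (−0.94), Egr2 (−0.65) and Fos (−1.34).

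Of 17 transcripts listed as bound by ZFP36 through AU-rich elements, all 16 that were tested were called higher with LPS in both states of the cells. Tnf was at 61 to 68 in control and at 36687 to 85240 in LPS PMφs, Il1b at 7 to 20 and at 51068 to 152939, Cxcl2 at 12 to 21 and at 14747 to 43478, and Ccl4 at 175 to 195 and at 12248 to 28877. The cytokine and chemokine mRNAs named here thus rose together with Zfp36 and by far more than it did. The other transcripts of the list were not compared with Zfp36 in this way. Several of the 16 were at 0 to 2 in control PMφs, so that no median fold is given for them. In oxLDL PMφs Il6 and Il23a were at 0 to 1, Il12b at 1 to 2, Cxcl3 at 2 to 8 and Il10 at 5 to 8. In oxLDL-loaded PMφs these genes passed the filter only through the libraries with LPS. Their calls are thus tied to the filter, and the count of 16 is in part fixed by it.

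The third question was what oxLDL changed without LPS. In oxLDL against control PMφs 0 of the 10 genes were called in limma, as were 0 of 12734 genes tested, or 0%, with 379 genes and 1 of the 10, Spred1, at an unadjusted p under 0.05. With the replicate block 4.7% of all genes were called, 1.79% higher and 2.91% lower, and 2 of the 10, Spred1 and Dusp6, both higher. The groups of 2 of the 10 genes did not overlap, Dusp4 and Spred2, as for 7.69% of all genes tested. The median of the 10 genes was 0.09, beside −0.0051 over all genes.

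Spred1 was at 839, 670 and 702 in control and at 1018, 814 and 1067 in oxLDL PMφs. It was higher in all 3 replicate numbers, by 0.28, 0.28 and 0.60 on the log2 scale, and number 2 of oxLDL lay below number 1 of control. On average the log2 difference was 0.39 (SE 0.13, limma adjusted p = 1), and with the replicate block the adjusted p was 0.0147, from 0.0147 to 1 across alternatives. Dusp6 differed by 0.13, 0.42 and 1.14 in the 3 replicate numbers, 0.57 on average (SE 0.24, limma adjusted p = 1, and 0.0813 with the replicate block, from 0.0813 to 1). Without number 2 in the block the difference of Dusp6 was 0.64 and its limma adjusted p 0.264, a loss of the call with a difference that was not smaller.

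Dusp4 and Spred2 shared with Dusp6 that number 3 differed most. In that number Dusp4 went from 119 to 278, Spred2 from 109 to 302 and Dusp6 from 138 to 306, log2 differences of 1.22, 1.46 and 1.14, whereas numbers 1 and 2 differed by 0.06 to 0.42. For these 3 genes it was the control library of number 3 that was low, and the 3 oxLDL libraries lay closer together than the 3 control libraries. With the replicate block the adjusted p from limma was 0.132 for Dusp4 and 0.185 for Spred2, from 0.132 to 1 and 0.185 to 1. Summed mesothelial and fibroblast markers in number 3 were 5821 in control and 6108 in oxLDL PMφs, and their part in this was not tested.

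Dusp2, Dusp16, Zfp36 and Dusp1 had differences with oxLDL of 0.02, 0.01, −0.05 and −0.0042 on the log2 scale, each smaller than its standard error of 0.11, 0.09, 0.10 and 0.12. Dusp3 was lower in all 3 numbers, by −0.07, −0.12 and −0.15, with an adjusted p of 1 from limma. Dusp5 differed by 0.17 (SE 0.31), with number 2 lower and numbers 1 and 3 higher. Of the other lists, 0 genes were called in the unblocked fit, and their counts with the block stand beside 4.7% of all genes. With the block 3 of 13 ERK-responsive transcripts were called, all higher, Fos by 0.66, Egr2 by 0.21 and Myc by 0.43, and of 36 cascade genes, 4 other MAP kinase phosphatases, 10 atypical phosphatases, 3 Sprouty and Spred genes and 2 Zfp36 family genes 0 were called. Of 10 downstream kinases Rps6ka2 was lower by −0.45, and of 11 AU-rich transcripts Plk2 was lower by −0.27 and Ccl2 higher by 0.38.

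The fourth question was how far oxLDL changed the levels reached under LPS. In oxLDL+LPS against LPS PMφs 0 of the 10 genes and 0 of 12769 genes tested, or 0%, were called in the unblocked limma fit, with 890 genes and 3 of the 10, Dusp2, Dusp16 and Spred1, at an unadjusted p under 0.05. With the replicate block 13.2% of all genes were called, 4.41% higher and 8.75% lower, and 5 of the 10, with Dusp2, Dusp16, Zfp36 and Spred1 lower and Dusp6 higher. Without number 1 and without number 3 in the block 0 of the 10 were called, with 70 and 0 among all genes, and without number 2 the block called 7 of the 10 and 2945 genes. Each of these fits holds 2 replicate numbers, so that a lost call does not by itself mean a smaller difference. Apart from Spred1 without number 1, the differences of these genes without number 1 or number 3 were smaller in size than with all numbers. Without number 1 the log2 differences were −0.80 for Dusp16, −0.75 for Dusp2, −0.35 for Zfp36, −0.31 for Spred1 and 0.31 for Dusp6, and without number 3 they were −0.68, −1.05, −0.44, −0.25 and 0.33. The groups of Dusp16 and Spred1 did not overlap, as for 12.6% of all genes tested. The median of the 10 genes was −0.18, beside −0.01 over all genes.

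**Figure D4:**
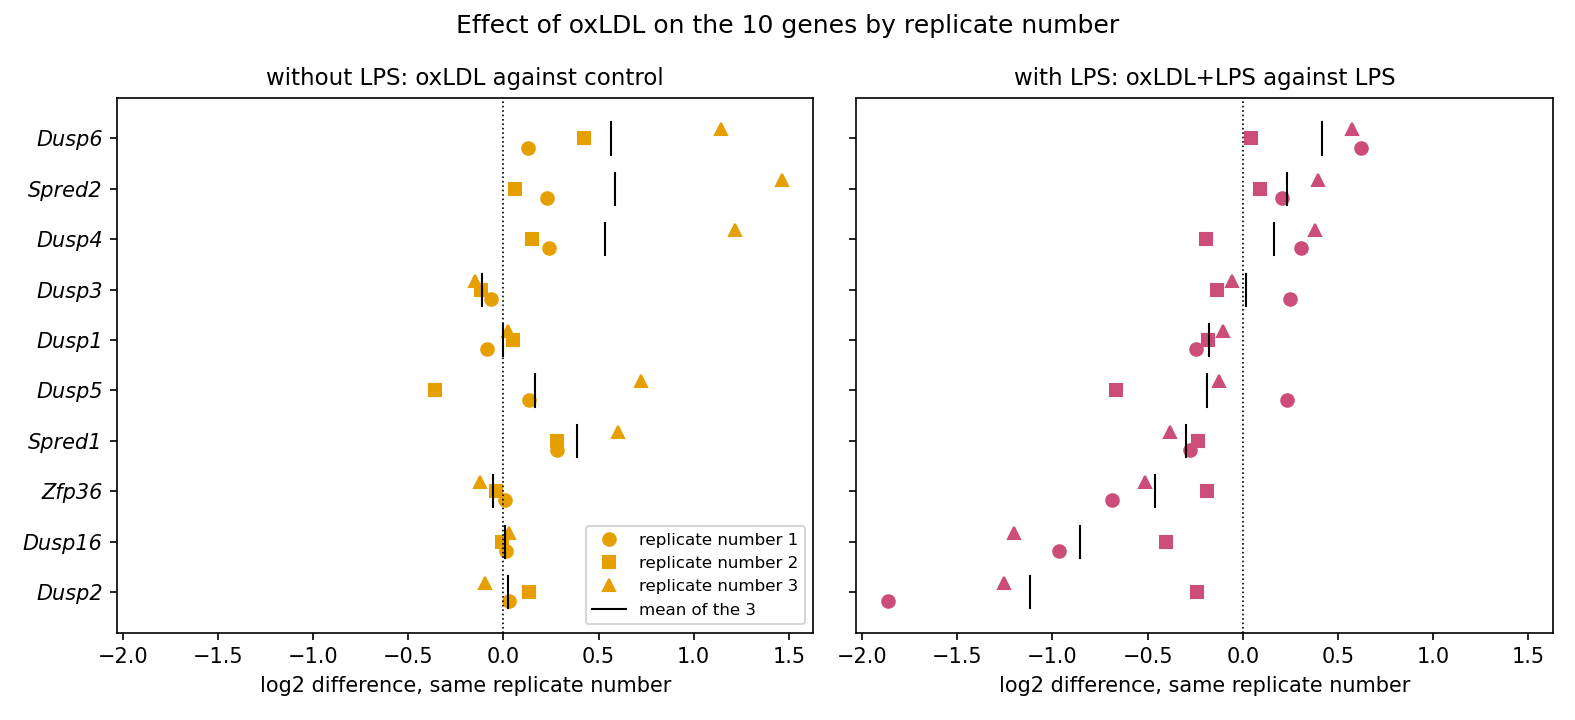
Log2 difference with oxLDL of the 10 genes within each replicate number, without LPS at the left and with LPS at the right, with bars at the mean of the 3. Spred1 lies above 0 in all 3 numbers without LPS and below 0 in all 3 with LPS, and Dusp2 and Dusp16 move from near 0 at the left to means of −1.12 and −0.86 at the right.

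Dusp16 was at 1662, 1332 and 2092 in LPS and at 850, 1008 and 909 in oxLDL+LPS PMφs. Each oxLDL+LPS library was below each LPS library, and the differences were −0.97, −0.40 and −1.20 in numbers 1, 2 and 3. On average the log2 difference was −0.86 (SE 0.17, limma adjusted p = 0.699), 1.81-fold lower, and with the replicate block the adjusted p was 0.00931, from 0.00931 to 0.999 across alternatives. It was the gene among the 10 that was also called when all 12 libraries entered 1 fit, at an adjusted p of 0.0987 from limma.

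Dusp2 was at 942, 426 and 1329 in LPS and at 258, 360 and 556 in oxLDL+LPS PMφs. It was lower in all 3 numbers, by −1.86, −0.24 and −1.26, although number 2 of LPS lay below number 3 of oxLDL+LPS. On average the log2 difference was −1.12 (SE 0.44, limma adjusted p = 0.705), 2.17-fold lower, with an adjusted p of 0.0249 with the replicate block, from 0.0249 to 0.999.

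Zfp36 was at 8677, 3923 and 8902 in LPS and at 5384, 3446 and 6244 in oxLDL+LPS PMφs, lower by −0.69, −0.19 and −0.51. The groups overlapped through number 2, and the mean log2 difference was −0.46 (SE 0.36, limma adjusted p = 0.808, and 0.0302 with the replicate block, from 0.0302 to 0.999). Spred1 was at 8963, 9017 and 10144 in LPS and at 7398, 7673 and 7775 in oxLDL+LPS PMφs. Its 3 differences were close to one another at −0.28, −0.23 and −0.38, the groups did not overlap, and the mean log2 difference was −0.30 (SE 0.10, limma adjusted p = 0.699, and 0.0616 with the replicate block, from 0.0616 to 0.999).

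Dusp6 was the gene of the 10 that the block called higher. It was at 492, 578 and 333 in LPS and at 758, 596 and 497 in oxLDL+LPS PMφs, with differences of 0.62, 0.04 and 0.58. The mean log2 difference was 0.41 (SE 0.24, limma adjusted p = 0.753, and 0.0662 with the replicate block, from 0.0662 to 0.999). Spred2 was higher in all 3 numbers, by 0.20, 0.09 and 0.40, without a call (limma adjusted p = 0.777). Dusp1 was lower in all 3, by −0.25, −0.18 and −0.11, also without a call (limma adjusted p = 0.903). Dusp4, Dusp3 and Dusp5 did not have the same sign in all 3 numbers, with log2 fold changes of 0.16, 0.02 and −0.19.

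For Dusp2, Dusp16 and Zfp36 it was number 2 that differed least between LPS and oxLDL+LPS PMφs, and number 2 also held the lowest LPS value of each. Summed mesothelial and fibroblast markers in numbers 1, 2 and 3 were 32024, 15014 and 6310 in LPS and 18534, 16488 and 5432 in oxLDL+LPS PMφs, so that number 1 had the largest difference. Their part in the results was not tested.

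In oxLDL+LPS against LPS PMφs the block called 4.41% of all genes higher and 8.75% lower. It called 70 genes without number 1 and 0 without number 3. Beside these shares, the related lists under the block gave 3 lower of 4 tested other MAP kinase phosphatases, Dusp8 by −0.74, Dusp7 by −0.29 and Dusp10 by −0.57. The unblocked fit called 0 of them, and their median was −0.43. Spry1 was lower by −1.61 (limma adjusted p = 0.00724 with the block), from 40 to 170 down to 13 to 72, and the other 3 Sprouty and Spred genes tested were not called. Of 10 atypical phosphatases Dusp11 was lower by −0.24, and 0 of 2 Zfp36 family genes were called. Of 36 cascade genes 2 were higher and 4 lower, Mapk6 by −0.48, Braf by −0.30 and Mapk14, which encodes p38α, by 0.35 being among those with the smallest p, and the median was −0.08. Of 10 downstream kinases 2 were higher, Rps6ka1 by 0.35 and Mknk2 by 0.29, and 2 lower, Rps6ka3 by −0.29 and Rps6ka2 by −0.30.

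Of 13 ERK-responsive transcripts the block called 4 lower and 1 higher in oxLDL+LPS than in LPS PMφs, with a median of −0.0098. Ier3, Ier2, Junb and Egr1 were lower by −0.72, −0.62, −0.54 and −0.88, and Fos was higher by 0.81, the last being the fifth by p and named for its direction after its values were seen. Of 16 AU-rich transcripts, Ier3 being on both lists, 14 were called lower and 0 higher, with a median of −1.26. Among all genes the block called 8.75% lower and 4.41% higher, and without number 3 it called 0 genes. Ptgs2 went from 15114 to 61849 in LPS PMφs to 2888 to 21485 in oxLDL+LPS PMφs, Ier3 from 1658 to 2383 to 1044 to 1551, Il6 from 2135 to 14906 to 261 to 4786, and Ccl3 from 34668 to 104907 to 7953 to 51710. With the block, 14 of the 16 AU-rich transcripts and Zfp36 itself were thus called lower. In the unblocked fit 0 of these were called.

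The last comparison tested the difference between the LPS responses of oxLDL-loaded and unloaded PMφs itself. In limma 0 of the 10 genes and 0 of 13465 genes tested, or 0%, were called, and with the replicate block again 0 and 0%, with 416 and 967 genes at an unadjusted p under 0.05. Dusp2, Dusp16 and Spred1 were under that value in both fits. The LPS response of Spred1 was smaller with oxLDL by −0.69 on the log2 scale (SE 0.16, limma adjusted p = 1.00, and 0.655 with the block), with −0.56, −0.51 and −0.99 in the 3 replicate numbers. For Dusp16 the difference was −0.87 (SE 0.20, limma adjusted p = 1.00, and 0.655 with the block), with −0.98, −0.39 and −1.23. For Dusp2 it was −1.14 (SE 0.50, limma adjusted p = 1.00, and 0.670 with the block), with −1.89, −0.38 and −1.16. Over other settings and single libraries left out the adjusted p ran from 0.389 to 1.00 for Spred1, from 0.309 to 1.00 for Dusp16 and from 0.670 to 1.00 for Dusp2, and with a replicate number left out of the block it reached 0.253, 0.147 and 0.301. The difference was negative in all 3 numbers also for Zfp36 (−0.41 on average) and Dusp1 (−0.17), while the other 5 genes had no common sign. The differences did not pass the test over all genes, which does not show that the responses were alike.

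Across the 12 libraries, which share the large LPS difference, the genes with the pattern most like each of the 10 were found among genes with a mean value of at least 100, by Pearson's r of log2(value + 1). Spred1 was most like Pxk and Xrn2 (r = 0.997 for both), Dusp16 was most like Ppp1r15b and Kremen1 (0.995 for both), and Zfp36 was most like Prrc2c and Dennd1a (0.991 for both). Dusp2 was most like Dgkh and Mark4 (0.974 and 0.972), and Dusp3, which fell, was most like Slc17a5 and Slc27a6 (0.997 for both). Dusp4 was most like Ptk2 and Psmd12 (0.986 and 0.984), Dusp6 was most like Vcp and Metap2 (0.962 and 0.953), and Dusp1 was most like Etv3 and Wfdc17 (0.958 and 0.925). The gene most like Spred2 after Set (0.953) was Dusp4 (0.952), the one case in which a match came from the 10 genes. Dusp5, which varied within the groups more than between them, had no close match, with 0.776 for Zfp597 and 0.731 for Cxadr.

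Among the 10 genes themselves, 2 sets of 3 were picked out after their values were seen. Dusp2, Dusp16 and Zfp36 were correlated over the 12 libraries at r = 0.941 to 0.952, and Dusp4, Dusp6 and Spred2 at 0.926 to 0.952. The first set was lower in oxLDL+LPS than in LPS PMφs in all 3 replicate numbers, and of the second set Dusp6 and Spred2 were higher in all 3 and Dusp4 in 2 of 3. These r values describe 12 libraries that share the LPS difference and carry no test.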

How the data were processed

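Gene-level RNA-seq values of 12 libraries from 4 groups of PMφs were analysed. Per the methods of the study, 150-bp paired reads of a directional poly(A) library were trimmed with Trimmomatic 0.32, aligned to mm10 with STAR 2.5.1b and counted over exons with featureCounts. From the even steps between its low values, the deposited signal is such a count per symbol that the authors scaled for each library and rounded to whole numbers, and how the factors were made is not given in the sources used here. The original counts were not recovered. A set of 25 symbols that read as dates, at most 0.165% of a library, was left out.

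Values were tested with limma 3.58.1 (R 4.3.3; tables and figures with Python 3.11.15) as log2(value + 1), a gene being tested where 3 or more of the compared libraries reached a value of 10, and with a threshold of 0.1 on the adjusted p. Each fit held the libraries compared, and the interaction all 12. The steps were tested on simulated data. Whether groups overlapped was read from the deposited values. P-values of the unblocked fits measure the spread between libraries of pooled cells, of which there are 3 per group. With the replicate block they measure the spread left after the differences between replicate numbers are taken out. The 10 genes, the related lists and the marker lists were chosen with earlier results of these data known. Of a related list, up to 4 called genes were named by smallest p, with other genes said to be chosen afterwards. The result of 1 list gene is not reported here.

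The replicate numbers were taken to pair libraries because same-numbered libraries deviated together over 11170 genes. The correlations of their deviations from the group means were 0.709, 0.691 and 0.731 for oxLDL against control, 0.733, 0.663 and 0.691 for oxLDL+LPS against LPS, 0.423, 0.410 and 0.617 for LPS against control, and 0.330, 0.524 and 0.665 for oxLDL+LPS against oxLDL. The replicate number as a block, a pseudocount of 10, other filters and scalings, all libraries in 1 fit and each library left out were tried as alternatives, and leaving a replicate number out of the block was added after the data were seen. Lengths and positions are from GENCODE vM21 on GRCm38 and promoter windows from RefSeq, and opposite-strand overlaps were read from the same annotation.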

Additional observations from a re-analysis of the deposited data

Results flagged for a closer look

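Spred1 moved in opposite directions with oxLDL in PMφs without and with LPS, and it did so in all 3 replicate numbers. Without LPS it was higher by 0.28, 0.28 and 0.60 on the log2 scale, and with LPS it was lower by 0.28, 0.23 and 0.38. The difference between the LPS responses was −0.685268 on the log2 scale (SE 0.16), with a limma adjusted p of 1.00 and, with the replicate block, of 0.655, so that it did not pass the test over all genes. The size of the oxLDL effect was small beside the 12.7-fold rise with LPS.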

How the results depend on the processing

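The replicate block moved the oxLDL comparisons most. In oxLDL against control PMφs it called 599 genes and 2 of the 10, against 0 and 0 without the block, and leaving a replicate number out of the block gave 129 to 1283 genes and 1 to 2 of the 10. In oxLDL+LPS against LPS PMφs it called 1680 genes and 5 of the 10, against 0 and 0, and leaving a number out of it gave 0 to 2945 genes and 0 to 7 of the 10. With all 12 libraries in 1 fit that comparison gave 29 genes and 1 of the 10, and leaving out single libraries without the block gave 0 to 91 genes, the 91 without oxLDL+LPS replicate 2. The interaction gave 0 to 6 genes with single libraries left out, the 6 without oxLDL+LPS replicate 2, and 0 to 9 with a number left out of the block. The cause of these differences was not tested. In LPS-treated against untreated PMφs, without or with oxLDL, the number of the 10 genes called was 8 or 9 under every alternative run. Of 850 values of the 10 genes under alternatives, 793 kept their sign and side of the threshold, 13 passed it newly and 14 lost it. The other 30, of 8 genes, changed sign and were called neither before nor after. In these 2 comparisons all losses and gains were of Dusp1. Tests on read counts were planned for the case that reads could be recovered and were not run. A fit with 2 replicate numbers in the block rests on 1 pair fewer and few residual degrees of freedom.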
